A study of Gallus gallus with 14 samples.

Results

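The mitochondrial ribosomal proteins were taken as every probe set whose single gene symbol in the array's annotation table begins with MRPL or MRPS followed by a number. This gave 96 probe sets for 67 genes, 43 with MRPL names and 24 with MRPS names, out of 38439 probe sets and 13009 named genes on the array. The rule reads gene names only. The study measured RNA of the chicken retinal pigment epithelium (RPE), the dark single layer of cells against the photoreceptors, peeled off as sheets at 4 ages given in days of embryonic life: E7, E10, E14 and E18. Single-colour Affymetrix arrays measured 4 preparations each at E7 and E18 and 3 each at E10 and E14, every one independent and pooled from 20 to 30 eyes. The labels name no strain, sex, genotype or treatment, so age is the only stated difference between the groups, and pooling hides the spread between single embryos.

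Mitochondria carry a ribosome of their own, which translates the few membrane proteins of the respiratory chain and ATP synthase that mitochondrial DNA encodes. Its ribosomal RNAs come from mitochondrial DNA, whereas all of its proteins are encoded in the nucleus, made in the cytosol and imported. Large subunit proteins are named MRPL and small subunit proteins MRPS, some of them homologues of bacterial ribosomal proteins and the others specific to mitochondria. The RPE is a polarised epithelium that takes much of its energy from mitochondrial respiration. In the mammalian ribosome MRPS30 and MRPS18A sit in the large subunit, and MRPS36 was later assigned to the 2-oxoglutarate dehydrogenase complex, so the groups below follow the names and not the structure.

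The median deposited signal per array ran from 83.5 to 145, and the 3 or 4 arrays per age limit the precision of every value. Values below are log2(intensity + 16) after quantile normalization, and a change is the difference between the means of 2 ages with the standard error (SE) of a limma fit over all 14 arrays. A gene is called, and written as having risen, fallen or changed, where the Benjamini-Hochberg adjusted p over all 23063 tested probe sets was under 0.05. Of the 67 genes, 64 had a probe set above the filter for dim signals, 40 MRPL and 24 MRPS, and the brightest one stood for the gene. MRPL21, MRPL30 and MRPL34 were dim and were not tested. All 12 RPE markers with a probe set were tested, and 6 rose and 2 fell between E7 and E18. The pigment genes DCT and TYRP1 stood above 15 on every array, TTR, RPE65 and STRA6 rose by 5.94, 5.73 and 5.50, and TYR and MITF changed by -0.19 and -0.65. The summed signal of the RPE markers lay between 205967 and 228474 at E7 and between 317077 and 364026 at E18. Of 8 photoreceptor markers 5 were tested and 3 rose, and their summed signal lay between 543 and 848 at E7 and between 1620 and 2443 at E18. Of 6 erythrocyte markers 5 were tested, 1 rose and 2 fell, and their summed signal lay between 1155 and 7364 at E7, 874 and 1066 at E10, 12429 and 13048 at E14, and 1390 and 50760 at E18. Of 9 leukocyte markers 6 were tested and 3 rose, among them CSF1R by 1.04 and CD74 by 1.21, and their summed signal lay between 4248 and 5536 at E7 and between 9090 and 11296 at E18. Of 9 markers of retinal neurons and glia 6 were tested, PROX1 rose by 2.90, and SNAP25 and ELAVL4 changed by -1.18 and -3.11. Of 4 neural crest and melanocyte markers 3 were tested. PMP22 changed by -1.86, while SOX10 and EDNRB had 0.09 and 0.23 and were not called. Of 6 striated muscle markers 4 were tested and 2 rose, TNNT3 by 2.01 and ACTA1 by 0.60. Of 8 endothelium markers 3 were tested and none was called. The EF1A 3' to 5' signal ratio, a measure of RNA quality, lay between 1.34 and 1.37 at E7 and between 1.48 and 1.61 at E18, without overlap. The same ratio for ACTB had means of 1.353 at E7 and 1.358 at E18, and the arrays of these ages overlapped. For GAPDH the means were 0.9904 at E7 and 0.9933 at E18, again with overlap, so only EF1A set the ages apart. The part of other cells or of RNA quality in the results was not tested.

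Of the 64 tested genes, 34 changed with age in the moderated F test over the 4 ages, beside 50.9% of the 10206 named genes tested. After quantile normalization E7 held the highest of the 4 means in 39 genes, E14 in 12, E18 in 10 and E10 in 3. E10 held the lowest mean in 29 genes, E18 in 25, E7 in 6 and E14 in 4. The same counts were not made for all named genes, so they do not set these genes apart. The mean over all 64 genes, set against the E7 mean, was -0.21 ± 0.03 (SD, n = 3) at E10, -0.12 ± 0.01 (n = 3) at E14 and -0.22 ± 0.05 (n = 4) at E18. The E7 arrays themselves spread by an SD of 0.06 around 0. After quantile normalization no array of a later age reached the lowest E7 array, which lay at -0.07. With median centring of the arrays the same mean was -0.18 ± 0.28 at E10, 0.17 ± 0.16 at E14 and -0.03 ± 0.13 at E18. The E14 value turned in direction, and the E7 arrays spread from -0.33 to 0.26. The mean over all named genes was then 0.01 ± 0.19 at E10, 0.23 ± 0.10 at E14 and 0.09 ± 0.11 at E18, above that of these genes at each age. In these bulk samples a lower signal can come from fewer cells that carry a transcript or from less of it per cell, and the 2 cannot be told apart.

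**Figure D1:**
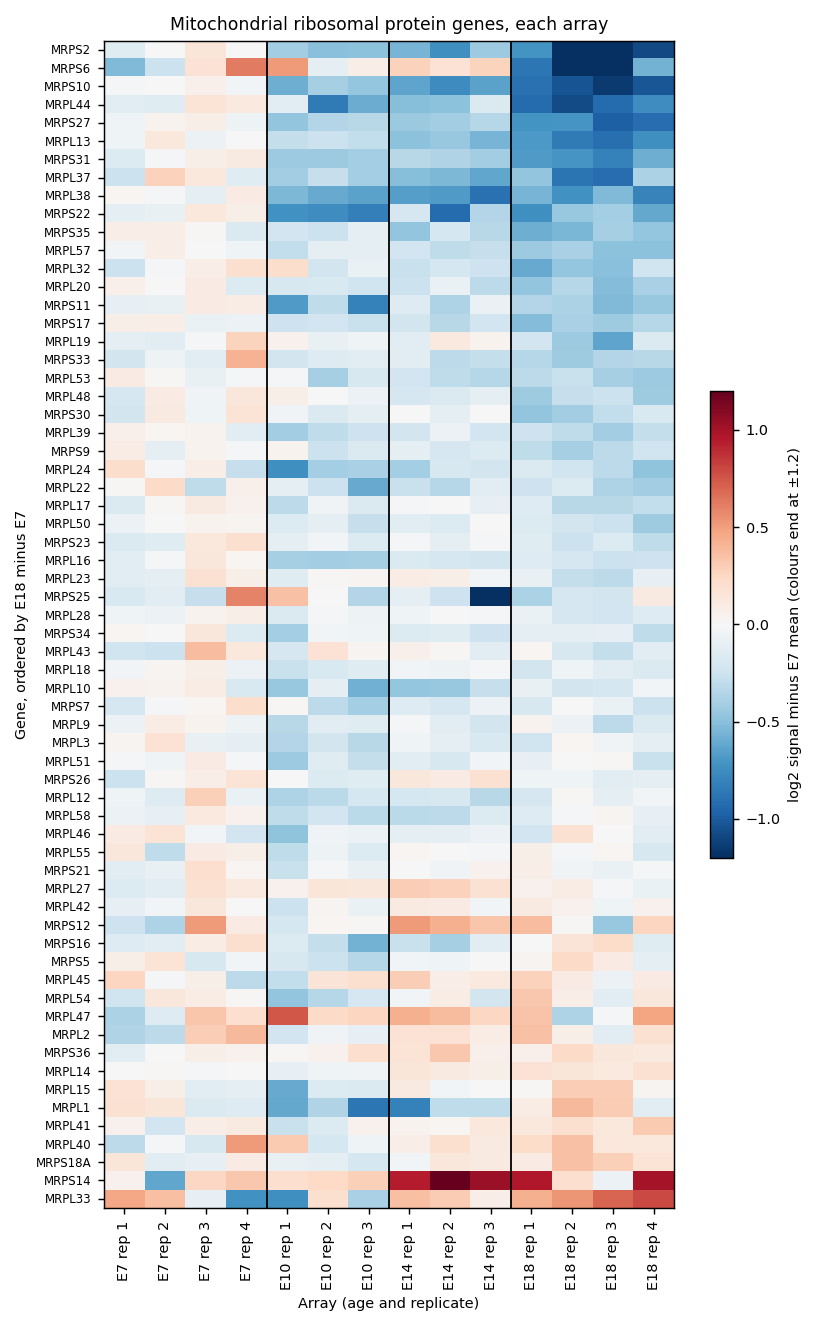
Each row is a mitochondrial ribosomal protein gene, each column is 1 array, and the colour is the log2 signal minus the gene's E7 mean, with colours ending at ±1.2. Rows run from the largest fall between E7 and E18 (MRPS2, -1.36) to the highest value (MRPL33, 0.61), and most rows are blue at E10 and at E18.

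Comparing the last age with the first, 28 of the 64 genes fell between E7 and E18 and 1 rose. Falls made up 43.8% of the genes, against 26.7% of all named genes, and rises 1.56%, against 21.6%. The median change was -0.16 for the mitochondrial ribosomal protein genes and -0.05 for all named genes. The E18 arrays did not overlap the E7 arrays in 26 genes, beside 42.3% of all named genes, and in 24 of the 26 the E18 arrays were the lower, or 37.5% of the 64, beside 23.3% of all named genes. Those 24 all fell. The value was below 0, whatever its p, in 46 of 64 genes, beside 53.6% of all named genes. Most falls were small: 9 reached 1.5-fold and 3 reached 2-fold. Within the 9 arrays that came with an instrument file, of which 1 is from E7, the median change was -0.21. Within the 5 arrays that came without one, 16 genes fell, all among the 28, with a median of -0.20. The share of all named genes that fell within these sets of arrays is not given here. The excess over all genes depended on how arrays were put on a common scale, which is given with the scalings further on.

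Among small subunit genes, 12 of 24 fell and none of the 24 rose, with a median of -0.26. The 3 largest falls of all were here, and all 3 genes encode homologues of bacterial small subunit proteins. MRPS2 stood at 10.26, 10.41, 10.56 and 10.42 on the 4 E7 arrays, 9.999, 9.91 and 9.92 at E10, 9.86, 9.68 and 9.97 at E14, and 9.69, 8.71, 8.47 and 9.33 at E18. Every E18 array but the first lay below all arrays of the earlier ages, and that one, at 9.69, lay within the E14 range. The change from E7 to E18 was -1.36 ± 0.20 (SE), a 2.57-fold fall (adjusted p = 3.6e-05).

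MRPS6 read 10.61, 10.88, 11.31 and 11.76 at E7, 11.65, 11.03 and 11.22 at E10, 11.42, 11.31 and 11.40 at E14, and 10.27, 9.61, 9.46 and 10.57 at E18. It was called in neither interval up to E14 and was lower on each E18 array than on any other array, although the E7 arrays spread widely (SD 0.51). The fall from E7 to E18 was -1.16 ± 0.25 (adjusted p = 0.0013), and a second probe set of the gene gave -1.05.

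MRPS10 showed the tightest replicates of the 3. Its values were 11.27, 11.30, 11.36 and 11.27 at E7, 10.72, 10.91 and 10.84 at E10, 10.67, 10.55 and 10.66 at E14, and 10.41, 10.27, 10.16 and 10.27 at E18. No arrays of any 2 ages overlapped, and each age lay below the one before it. The change over the whole period was -1.02 ± 0.08 (adjusted p = 3.2e-08).

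At E18, MRPS2 and MRPS6 were lower on replicates 2 and 3 than on replicates 1 and 4. The same pair of arrays had HBA1, an alpha globin, at 9.84 and 9.67, against 14.88 and 14.83 on the other pair, had the lowest ACTB 3' to 5' signal ratios of that age (1.23 and 1.18, against 1.56 and 1.47), and came without an instrument file. MRPS14, at 8.96 and 8.69 on this pair and 9.72 and 9.76 on the other, was picked after its values were seen and split the same way. The part of these differences in the genes was not tested. Both remained called within each set of arrays: MRPS2 changed by -0.91 over the 9 arrays with an instrument file and by -1.81 over the 5 without one, and MRPS6 by -1.34 and -1.39.

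Of the small subunit proteins specific to mitochondria, 6 of 11 fell, with a median of -0.34, and of those with a bacterial homologue 6 of 13 fell, with a median of -0.13. MRPS27, a pentatricopeptide repeat protein of the small subunit, read 11.03, 11.13, 11.16 and 11.03 at E7, 10.61, 10.73 and 10.75 at E10, 10.65, 10.67 and 10.74 at E14, and 10.37, 10.38, 10.10 and 10.18 at E18. It stepped down first between E7 and E10 and again after E14, with no overlap at either step. The total change was -0.83 ± 0.08 (adjusted p = 7.7e-07). MRPS31 changed by -0.70 ± 0.08 (adjusted p = 1.8e-06), MRPS22 by -0.55 ± 0.15 (adjusted p = 0.0071) and MRPS35 by -0.50 ± 0.10 (adjusted p = 0.00074), each without overlap between E7 and E18. MRPS22 lost its call over the 5 arrays without an instrument file (-0.41, adjusted p = 0.085), and MRPS35 over the 9 with one (-0.35, adjusted p = 0.088). The remaining small subunit genes that fell were MRPS11, MRPS17, MRPS33, MRPS30 and MRPS9, with changes from -0.43 to -0.31.

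Among large subunit genes, 16 of 40 fell and 1 rose, with a median of -0.14. Those with a bacterial homologue counted 8 falls and 1 rise among 21 tested, and those specific to mitochondria 8 falls among 19. MRPL44, a ribonuclease III-like protein of the large subunit, read 11.28, 11.28, 11.58 and 11.54 at E7, 11.30, 10.57 and 10.83 at E10, 10.91, 10.93 and 11.25 at E14, and 10.50, 10.35, 10.49 and 10.68 at E18. The E18 arrays lay below all E7 and E14 arrays, while the E10 arrays spread from the E7 range down into the E18 range. The change was -0.92 ± 0.14 (adjusted p = 5.4e-05).

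MRPL38, a protein of the central protuberance, read 10.27, 10.23, 10.14 and 10.34 at E7, 9.71, 9.63 and 9.60 at E10, 9.58, 9.56 and 9.35 at E14, and 9.69, 9.52, 9.71 and 9.44 at E18. Its called drop lay between E7 and E10, and the 10 later arrays all stayed between 9.35 and 9.71. The change from E7 to E18 was -0.65 ± 0.10 (adjusted p = 6.4e-05), and its second probe set gave -0.68.

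MRPL13, a homologue of a bacterial protein that binds ribosomal RNA early in assembly, was lower at each age than at the one before. It read 13.55, 13.72, 13.52 and 13.59 at E7, 13.31, 13.33 and 13.31 at E10, 13.11, 13.14 and 13.04 at E14, and 12.91, 12.75, 12.69 and 12.86 at E18. No 2 ages overlapped. The change was -0.79 ± 0.06 (adjusted p = 3.0e-08). MRPL37 changed by -0.66 ± 0.13 and its second probe set by -0.57, both called. Over the 9 arrays with an instrument file MRPL37 changed by -0.27 and was not called (adjusted p = 0.065), and over the 5 without one by -0.95. MRPL57 changed by -0.45 ± 0.06 (adjusted p = 1.5e-05). The other 11 large subunit genes that fell were MRPL32, MRPL20, MRPL19, MRPL53, MRPL48, MRPL39, MRPL24, MRPL17, MRPL50, MRPL16 and MRPL28, with changes from -0.45 to -0.17.

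**Figure D2:**
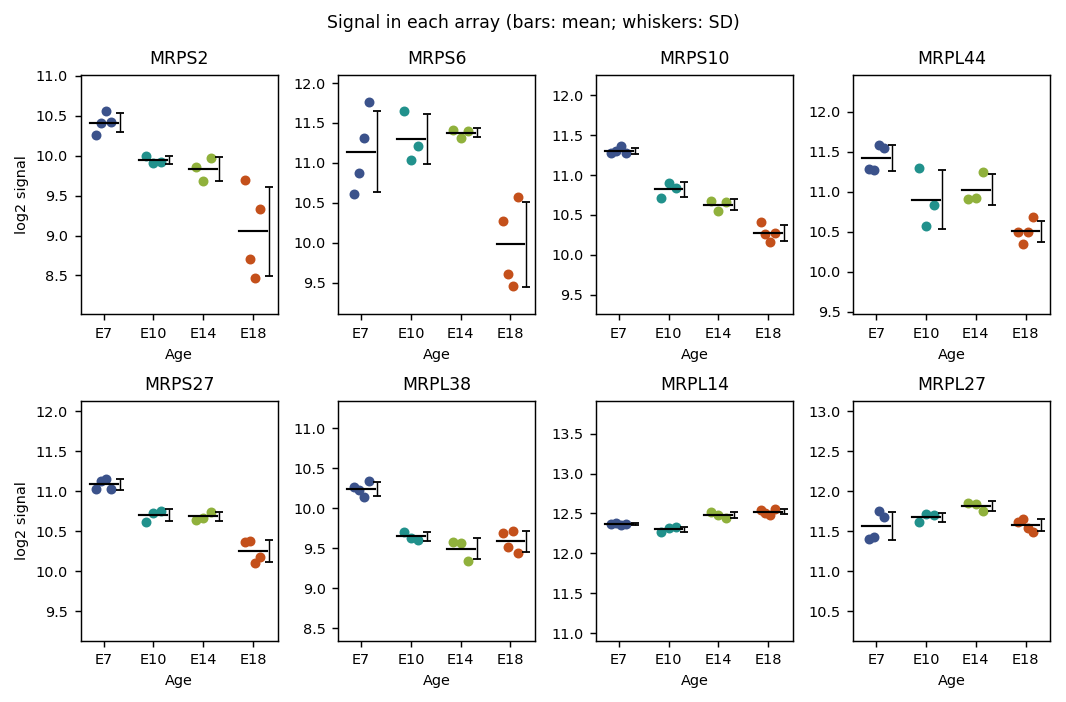
Log2 signal of 8 genes on each array by age, with the mean as a bar and the SD as a whisker, every panel spanning 3 log2 units. MRPS2, MRPS6, MRPS10, MRPL44, MRPS27 and MRPL38 fell between E7 and E18, MRPL14 rose by 0.15, and MRPL27 had the smallest change (0.01).

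The single rise was MRPL14, whose protein lies where the subunits meet. It read 12.37, 12.38, 12.35 and 12.36 at E7, 12.27, 12.32 and 12.33 at E10, 12.52, 12.48 and 12.44 at E14, and 12.54, 12.51, 12.48 and 12.55 at E18. The change was only 0.15 ± 0.05 (adjusted p = 0.024) and the E7 arrays had an SD of 0.01. The call was lost without E7 replicate 3 (adjusted p = 0.0504), without E18 replicate 4 (adjusted p = 0.0523), over the 9 arrays with an instrument file (adjusted p = 0.075) and over the 5 without one (adjusted p = 0.22). Higher values that missed the threshold were 0.61 ± 0.28 for MRPL33 and 0.52 ± 0.23 for MRPS14, whose E7 arrays had SDs of 0.54 and 0.43, and 0.23 ± 0.09 for MRPS18A (adjusted p = 0.0505).

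The 6 genes with the smallest values between E7 and E18 were MRPL27 (0.01 ± 0.08), MRPS21 (-0.02 ± 0.08), MRPL55 (-0.03 ± 0.10), MRPL42 (0.04 ± 0.08), MRPL46 (-0.04 ± 0.12) and MRPS12 (0.05 ± 0.19). They include MRPL27, whose bacterial homologue reaches the peptidyl transferase centre, MRPS12 of the decoding centre and MRPL46, another protein of the central protuberance. MRPS12 was the least certain, since its E7 arrays spread from 9.78 to 10.66 and its E18 arrays from 9.69 to 10.52. A value near 0 does not show that these genes kept their level: SEs from 0.08 to 0.19 leave room for changes larger than that in either direction.

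**Figure D3:**
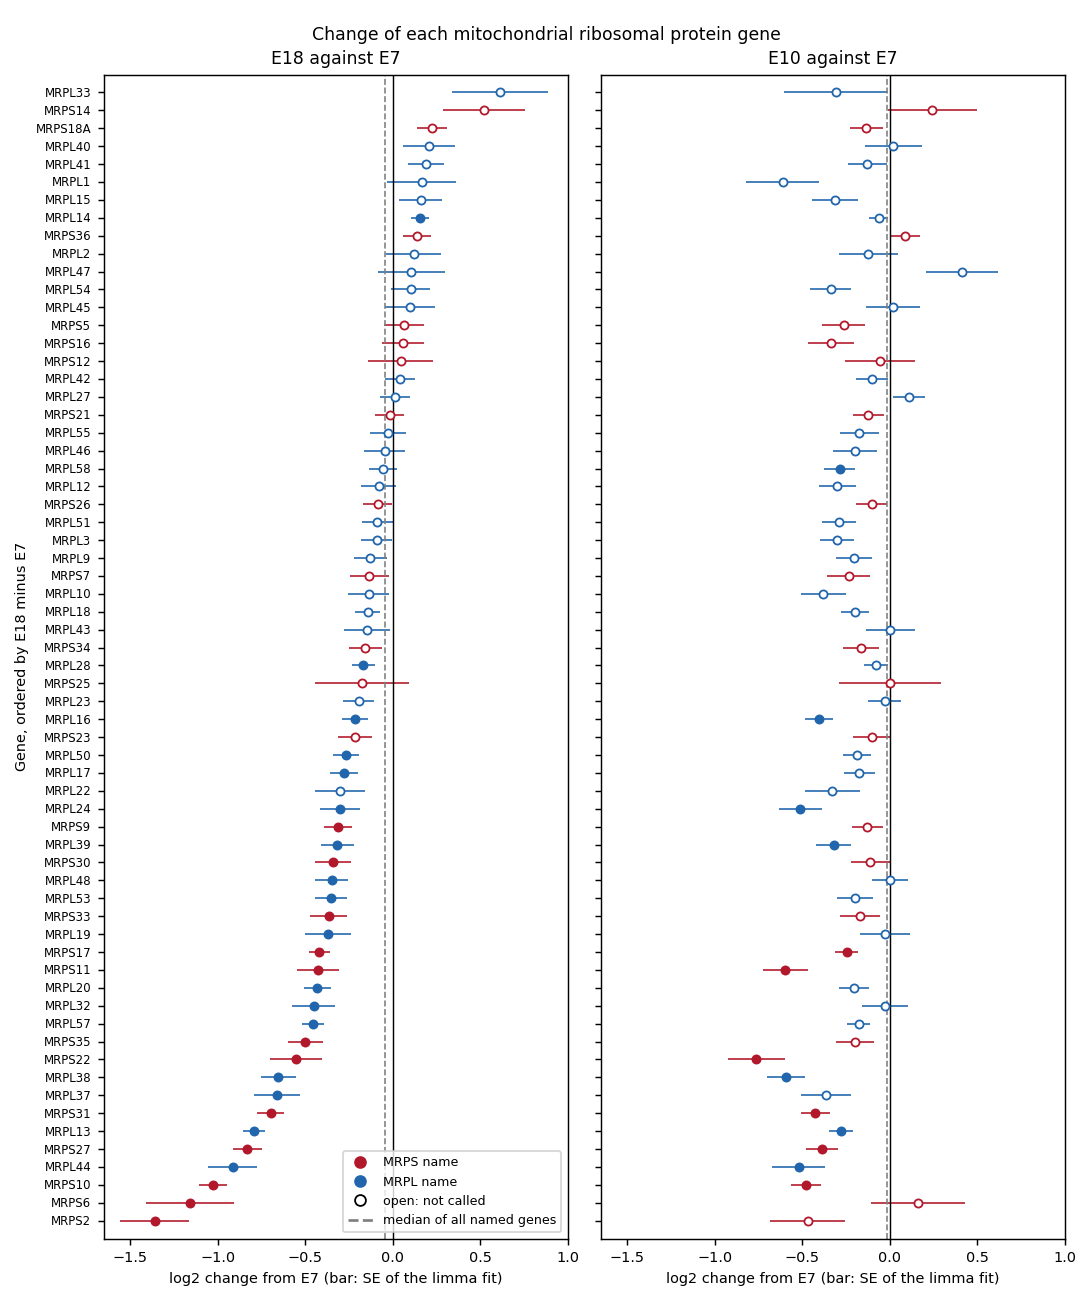
Log2 change of each of the 64 genes from E7 to E18 (left) and from E7 to E10 (right), with the SE of the limma fit as a bar, genes in the same order in both panels. Filled points are called, red marks MRPS names and blue MRPL names, and the dashed line is the median of all named genes (-0.05 and -0.01). By E10 most points lie left of the dashed line, whereas by E18 they fan out from -1.36 to 0.61.

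Between E7 and E10, 13 genes fell and none of the 64 rose. At an unadjusted p under 0.05, 28 genes passed and none was higher. The share of all named genes at that unadjusted threshold was not counted. Falls made up 20.3% of the genes, against 8.08% of all named genes, while 8.78% of all named genes rose. The median change was -0.20, against -0.01 for all named genes, and 55 of 64 values were below 0, beside 51.8% of all named genes. The arrays of the 2 ages did not overlap in 26 genes, beside 28.9% of all named genes, and in all 26 the E10 arrays were the lower, or 40.6% of the 64, beside 15.1% of all named genes. They include 12 of the 13 genes that fell. All 3 E10 arrays but only 1 of the 4 E7 arrays came with an instrument file, so age and file largely coincide here. With that file as a block 12 genes fell, 9 of them among the 13, and the share of all named genes under this block is not given here. Falls were counted in 7 of 40 large and 6 of 24 small subunit genes, at medians of -0.20 and -0.17, and the difference between the subunits was not tested. Of the 13 genes, 12 also fell between E7 and E18, and the 2 comparisons share the E7 arrays. The exception was MRPL58, a peptidyl-tRNA hydrolase built into the large subunit that releases stalled chains. It changed by -0.29 ± 0.09 by E10 (adjusted p = 0.042) and by -0.06 ± 0.08 by E18.

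The 5 largest called falls by E10 were in MRPS22, MRPS11, MRPL38, MRPL44 and MRPL24. MRPS22, a small subunit protein specific to mitochondria, read 9.29, 9.31, 9.52 and 9.47 at E7 and 8.67, 8.65 and 8.58 at E10, then 9.19, 8.47 and 9.05 at E14 and 8.66, 8.94, 8.99 and 8.78 at E18. The E10 arrays lay together, well below E7, and all later arrays lay below the lowest E7 array. The fall by E10 was -0.76 ± 0.16 (adjusted p = 0.0047), and it was the one fall by E10 that was also called with each array centred on its median.

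MRPS11, the homologue of a bacterial platform protein, read 9.89, 9.90, 10.09 and 10.07 at E7, 9.30, 9.68 and 9.18 at E10, 9.83, 9.61 and 9.91 at E14, and 9.64, 9.61, 9.45 and 9.54 at E18. The lowest array was at E10, the E14 arrays overlapped those of E7, and the E18 arrays lay below all of E7. The fall by E10 was -0.60 ± 0.13 (adjusted p = 0.0055). In the RefSeq annotation MRPS11 lies next to MRPL46, which changed by -0.20 ± 0.13 in the same interval and was not called.

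MRPL38 changed by -0.60 ± 0.11 by E10 (adjusted p = 0.0016). MRPL44 changed by -0.52 ± 0.15 (adjusted p = 0.031), a call lost without E7 replicate 3, E7 replicate 4, E10 replicate 2 or E10 replicate 3 (adjusted p of 0.072, 0.062, 0.18 and 0.12) and over the 9 arrays with an instrument file (adjusted p = 0.084). MRPL24, whose bacterial homologue sits at the exit of the peptide tunnel, changed by -0.51 ± 0.12 (adjusted p = 0.012), a call lost without E10 replicate 1 (adjusted p = 0.079). Over the 9 arrays with an instrument file MRPL24 had -0.24 (adjusted p = 0.40), with that file as a block -0.37 (adjusted p = 0.11) and without the lowest ACTB ratios -0.41 (adjusted p = 0.068). Without E10 replicate 1 8 of the 64 genes fell by E10.

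Between E10 and E14 no gene of the 64 was called in the limma fit, while 9 passed an unadjusted p under 0.05, 8 of them higher at E14. Here too the share of all named genes at the unadjusted threshold was not counted. Among all named genes 4.65% rose and 2.79% fell. The median was 0.09, against 0.03 for all named genes. Only 20 of the 64 values were below 0, beside 46.2% of all named genes, and the arrays of the 2 ages did not overlap in 19 of the 64 genes, beside 37.3% of all named genes. E14 was the lower in 5 of the 19, or 7.81% of the 64, beside 16.5% of all named genes. The highest value was 0.83 ± 0.27 for MRPS14, a homologue of a bacterial small subunit protein, which read from 8.96 to 9.04 at E10 and 9.70, 9.99 and 9.80 at E14. These arrays did not overlap, but the adjusted p was 0.094.

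Between E14 and E18, 7 genes fell and 1 rose. Falls made up 10.9% of the genes, against 15.1% of all named genes, and 9.79% of all named genes rose. The median of -0.08 lay close to the -0.07 of all named genes. The value was below 0 in 44 of the 64 genes, beside 56.9% of all named genes, and the arrays did not overlap in 26, beside 38.4% of all named genes. E18 was the lower in 22 of these, or 34.4% of the 64, beside 22.8% of all named genes, and 6 of the 7 genes that fell were among them. The falls lay in 5 of 24 small and 2 of 40 large subunit genes. MRPS6 had the largest of them, -1.40 ± 0.27 (adjusted p = 0.0014), followed by MRPS2 with -0.79 ± 0.21 (adjusted p = 0.016), MRPL44 with -0.52 ± 0.15 (adjusted p = 0.022), MRPS27 with -0.43 ± 0.09 (adjusted p = 0.0032) and MRPS10 with -0.35 ± 0.09 (adjusted p = 0.00845). MRPS31 and MRPL13 changed by -0.32 and -0.29.

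The call for MRPS2 in this interval was lost without E14 replicate 1, E14 replicate 3 or E18 replicate 2 (adjusted p of 0.057, 0.074 and 0.054), and over the 9 arrays with an instrument file the change was -0.32 (adjusted p = 0.10). The call for MRPL44 was lost without E14 replicate 3 or E18 replicate 2 (adjusted p of 0.12 and 0.064) and over the 9 arrays (adjusted p = 0.11). The rise was MRPL1, the protein of the mobile L1 stalk, which read 8.07, 8.03, 7.72 and 7.73 at E7, 7.28, 7.52 and 7.02 at E10, 7.08, 7.58 and 7.58 at E14, and 7.97, 8.28, 8.19 and 7.77 at E18. It was lower at both middle ages than at either end. The change of 0.64 ± 0.21 (adjusted p = 0.043) lost its call when any 1 of 7 arrays was left out, with adjusted p from 0.051 to 0.21, among them all 3 E14 arrays.

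Set over the whole course, 5 genes fell both by E10 and again after E14: MRPL13, MRPL44, MRPS10, MRPS27 and MRPS31. The fall of MRPS2 and MRPS6 was called after E14 and not by E10. Another 14 of the 28 genes that fell between E7 and E18 were called in none of the 3 intervals. The mean over the small subunit genes minus that over the large subunit genes, set to 0 at E7, was -0.00 ± 0.06 (SD, n = 3) at E10, -0.00 ± 0.04 (n = 3) at E14 and -0.16 ± 0.04 (n = 4) at E18. The E7 arrays spread from -0.07 to 0.12 and the E18 arrays from -0.20 to -0.11, so no E18 array overlapped E7. The gap at E18 was -0.17 on the deposited scale. Centring each array on its median shifts the whole array and so cannot alter this gap. It is a gap between means, in which MRPS2, MRPS6 and MRPS10 weigh most (-1.36, -1.16 and -1.02 from E7 to E18). The gap without these genes was not computed, so it is not shown for the small subunit genes at large.

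Several genes were read by more than 1 probe set. Of the 14 genes with at least 2 tested probe sets, none had opposite calls between E7 and E18, 3 had all of them called (MRPL37, MRPL38 and MRPS6), 4 had none called, and 7 were mixed. In MRPL32 the brighter probe set gave -0.45 ± 0.12 (adjusted p = 0.0079) and the dimmer 0.36 ± 0.16 (adjusted p = 0.084). In MRPS33 they gave -0.37 ± 0.11 (adjusted p = 0.011) and 0.33 ± 0.16 (adjusted p = 0.12). MRPS16, a homologue of a bacterial small subunit protein, had 4 tested probe sets: the brightest gave 0.06 ± 0.12, and the next 0.82 ± 0.13 (adjusted p = 8.8e-05), with -0.11 and 0.41 for the others. MRPL17, MRPL50 and MRPL53 each had a call on the brightest probe set and values between -0.19 and 0.07 on the others, and in MRPL20 the second probe set gave -0.51 ± 0.25 (adjusted p = 0.13). For the fall of MRPL32, MRPS33, MRPL17, MRPL50 and MRPL53, taking the mean of a gene's probe sets ended the call, and in MRPS16 that mean was called higher (0.30, adjusted p = 0.034).

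The counts of falls by E10 and by E18 were lowest with median centring among the alternatives run. The median of all named genes between E7 and E18 was -0.05 after quantile normalization, -0.16 on the deposited scale and 0.06 when every array was centred on its median. The median of the mitochondrial ribosomal protein genes was -0.16, -0.16 and 0.06. Relative to all named genes the median was therefore -0.11 after quantile normalization and 0.00 under both others. Those 2 scalings differ only by a shift of each whole array, which cannot alter a difference between sets of genes on the same arrays. The mean per array relative to all named genes was -0.21 ± 0.02 at E18 after quantile normalization and -0.12 ± 0.03 under both others, where the E18 arrays lay between -0.167 and -0.0928, all below the lowest E7 array at -0.0871. Falls numbered 28, 24 and 7, and rises 1, 2 and 3. Of all named genes 26.7% fell after quantile normalization, and that share is not given here for the other scalings. Of all named genes called, the higher made up 44.8%, 38.1% and 58.3%, and of the mitochondrial ribosomal protein genes called 3.45%, 7.69% and 30.0%.

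Falls called under all 3 scalings were those of MRPS2, MRPS6, MRPS10, MRPL44, MRPS27, MRPL38 and MRPS22. The value was below 0 under all 3 in 27 genes, above 0 in 12 and changed sign in 25, while 45.6% of all named genes were below 0 under all 3. MRPL14 was called higher each time, with changes of 0.15, 0.32 and 0.54. MRPS2 changed by -1.36, -1.48 and -1.27, MRPS10 by -1.02, -1.03 and -0.82 and MRPL38 by -0.65, -0.76 and -0.54. MRPL13, by contrast, went from -0.79 to -0.33 with median centring and was no longer called (adjusted p = 0.17). MRPS2, MRPS6, MRPS10, MRPL44, MRPS27 and MRPL38 were called lower under each of the 31 alternatives run.

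**Figure D4:**
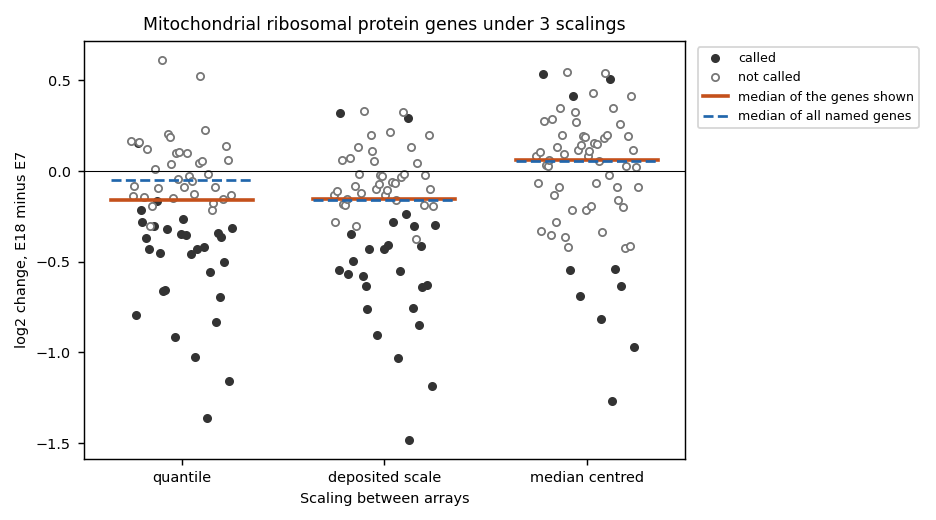
Log2 change between E7 and E18 of each of the 64 genes (points, filled where called) under the 3 scalings, with their median as a solid line and that of all named genes as a dashed line. The solid line lies below the dashed one after quantile normalization (-0.16 and -0.05) and on it under the other scalings.

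Between E7 and E10 the distance from all named genes was kept. The members' median was -0.20 after quantile normalization, -0.19 on the deposited scale and -0.16 with median centring, against -0.01, -0.03 and -0.00 for all named genes. The value was below 0 under all 3 scalings in 53 of the 64 genes, beside 49.5% of all named genes. The calls were not kept: 13, 11 and 1 genes fell. Of all named genes 8.08% fell after quantile normalization, and that share is not given here for the other scalings. Whether calls were lost in these genes more than in others is therefore not shown. With median centring the mean over the 64 genes had an SD of 0.24 between the E7 arrays and 0.28 between the E10 arrays, against 0.06 and 0.03 after quantile normalization.

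Cytosolic ribosomal proteins, which build the ribosome that makes all other proteins, were measured on the same arrays. Of 65 tested, 58 fell between E7 and E18 (89.2%) and none rose, where 26.7% of all named genes fell and 21.6% rose, with a median of -0.58, against 28 of 64 mitochondrial ones with a median of -0.16. RPL35A changed by -1.51 ± 0.06, RPL12 by -1.22 ± 0.06 and RPL36A by -1.05 ± 0.05. Most of it came late. Between E14 and E18, 54 of 65 fell (83.1%, beside 15.1% of all named genes), with a median of -0.38. Between E7 and E10, 16 of 65 fell (24.6%, beside 8.08% of all named genes), with a median of -0.12. The mean of the cytosolic set minus its E7 mean was -0.12 ± 0.02 at E10, -0.24 ± 0.01 at E14 and -0.63 ± 0.04 at E18 (SD, n of 3, 3 and 4). On the deposited scale it was -0.16 ± 0.19, -0.26 ± 0.05 and -0.57 ± 0.05. With median centring it was -0.13 ± 0.40, 0.01 ± 0.08 and -0.36 ± 0.11. The E18 arrays (-0.48 to -0.24) then overlapped those of E7 (-0.42 to 0.22). After quantile normalization the mitochondrial mean minus the cytosolic one was -0.09 ± 0.03 at E10, where the arrays overlapped those of E7, and 0.41 ± 0.01 at E18, where they did not. On the deposited scale the values were -0.05 ± 0.15 and 0.33 ± 0.04.

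The nuclear subunits of the respiratory chain and ATP synthase, which join the proteins that mitochondrial ribosomes make, went the other way late in development. Of 64 tested, 34 rose (53.1%) and 4 fell (6.25%) between E7 and E18, with a median of 0.19. COX6A1 changed by 0.75 ± 0.05, SDHD by 0.81 ± 0.07 and ATP5G1 by 0.71 ± 0.06. By E10, however, 13 of these 64 genes had fallen (20.3%, beside 8.08% of all named genes). By then 2 had risen (3.1%, beside 8.78%). Rises numbered 14 between E10 and E14 (21.9%, beside 4.65%) and 17 between E14 and E18 (26.6%, beside 9.79%). The mean of the mitochondrial ribosomal proteins minus that of the respiratory subunits, set to 0 at E7 where its SD was 0.01 (n = 4), was -0.13 ± 0.04 (n = 3) at E10, -0.22 ± 0.02 (n = 3) at E14 and -0.46 ± 0.06 (n = 4) at E18. This distance does not depend on a shift of a whole array, and it was -0.62 ± 0.09 at E18 on the deposited scale.

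**Figure D5:**
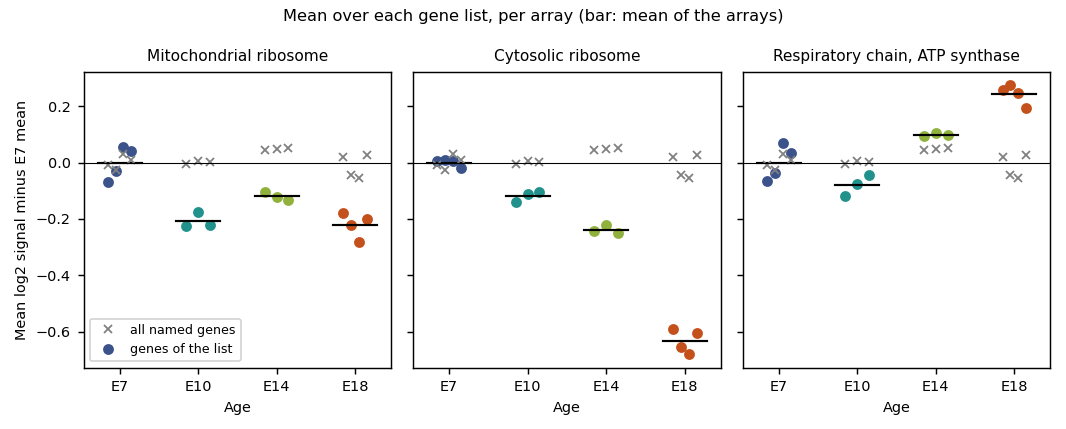
Mean log2 signal per array, minus the E7 mean, over the mitochondrial ribosomal proteins (64 genes), the cytosolic ribosomal proteins (65) and the nuclear respiratory chain and ATP synthase subunits (64), as coloured points with the mean of each age as a bar. Grey crosses are the mean over all named genes on the same arrays. After the quantile normalization drawn here the mitochondrial set stands at -0.21 at E10, the cytosolic set at -0.63 and the respiratory set at 0.24 at E18. With median centring the mitochondrial set is at 0.17 at E14 and -0.03 at E18, and all named genes are at 0.23 and 0.09.

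The shares in the lists that follow are for E7 against E18, where 26.7% of all named genes fell and 21.6% rose. Mitochondrial ribosomal proteins with other names were few. DAP3, a small subunit protein that binds GTP, changed by -0.32 ± 0.08 (adjusted p = 0.0044), and PTCD3, a pentatricopeptide repeat protein of the small subunit, by -0.41 ± 0.10 (adjusted p = 0.0033). CHCHD1 had 0.30 ± 0.17 and AURKAIP1 0.06 ± 0.09, neither called. Under median centring DAP3 and PTCD3 lost their calls (adjusted p of 0.54 and 0.31).

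Of 18 genes for assembly of the ribosome and modification of its RNA, 5 fell (27.8%) and 1 rose (5.56%) between E7 and E18, with a median of -0.13, and the share that fell is near that of all named genes. The rise was TFB1M, which methylates the small ribosomal RNA, by 0.97 ± 0.11 (adjusted p = 3.2e-06), called under all 3 scalings. MALSU1, an assembly factor of the large subunit, changed by -0.52 ± 0.11 and DDX28, an RNA helicase, by -0.59 ± 0.15, both called except under median centring (adjusted p of 0.10 and 0.086). By E10 none of the 18 was called, where 8.08% of all named genes fell and 8.78% rose. Their median was then 0.00, beside -0.01 for all named genes and -0.20 for the ribosomal proteins, and the difference was not tested.

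Of 11 translation factors, 3 fell (27.3%) and 1 rose (9.09%), the falls again near the share of all named genes. MTIF3, an initiation factor, rose by 0.61 ± 0.10, LRPPRC, which stabilises mitochondrial messenger RNAs, changed by -1.002 ± 0.26, and both were called under all 3 scalings. MTRF1L, a release factor, changed by -0.34 ± 0.11 and was not called with median centring (adjusted p = 0.26). Of 15 genes that supply charged mitochondrial transfer RNAs, 1 fell (6.67%) and 2 rose (13.3%). The synthetase AARS2 changed by -0.67 ± 0.16 and the synthetase YARS2 by 0.54 ± 0.17. GATB, a subunit of the amidotransferase that completes glutaminyl-tRNA and not a synthetase, changed by 0.34 ± 0.13. Neither rise was called under the other scalings.

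Of 14 genes for mitochondrial DNA maintenance and transcription, 3 fell (21.4%) and 1 rose (7.14%). SSBP1, the single-stranded DNA binding protein, changed by -1.27 ± 0.07 and CLPX, a subunit of a matrix protease, rose by 0.64 ± 0.10, both under all 3 scalings. C10orf2, the helicase of mitochondrial DNA, changed by -0.61 ± 0.11. Among 14 regulators of mitochondrial biogenesis, 5 fell (35.7%) and 2 rose (14.3%). MYCN, a transcription factor of the MYC family, changed by -2.45 ± 0.12 and PPARA, a nuclear receptor for fatty acids, rose by 0.86 ± 0.13, both under all 3 scalings. GABPA, a factor whose target genes in mammals include many nuclear genes for mitochondria, changed by -0.55 ± 0.08 and lost its call with median centring (adjusted p = 0.38).

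Of 26 genes for import into mitochondria, 9 fell (34.6%) and 7 rose (26.9%), with a median of -0.03. TIMM17B of the inner membrane translocase rose by 0.58 ± 0.06 under all 3 scalings. TOMM22 and TOMM7 of the outer membrane translocase changed by -0.57 ± 0.05 and -0.46 ± 0.05, both called on the deposited scale but not with median centring (-0.10 and 0.00). The lists differed in size, and no test of one list against another was made.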

How the data were processed

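The authors deposited one intensity per probe set and array on a linear scale, every array with a 2% trimmed mean of about 500.1. The software behind it is not given in the sources used here, nor is a genome build. For 9 of the 14 arrays (all of E10 and E14, 1 of E7 and 2 of E18) the authors also deposited an instrument record. Its settings are of another unit and served only to split the arrays. It gives fluidics station 1 for E7 replicate 4 and E10 replicate 1. Station 2 ran E10 replicates 2 and 3 and E14 replicates 1 and 2. Station 3 ran E14 replicate 3 and E18 replicates 1 and 4. The station thus ran with age, and its part in the results was not tested. Array medians differed by 1.74 times, so log2(intensity + 16) was quantile normalized, after 96 control probe sets were removed. The lowest 40% by mean (log2 signal under 6.20) were left out. limma 3.58.1 in R 4.3.3 (lmFit, eBayes with a trend) was fitted to all 14 arrays with Benjamini-Hochberg adjustment over all tested probe sets. This chain was tested on simulated data. Python 3.11.15 and matplotlib 3.10.9 drew the plots.

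Names come from the array's annotation table: 27168 probe sets had 1 symbol, 177 several and 11094 none, and all 67 genes matched RefSeq. Some probe sets may match several transcripts. Named genes are those with the largest called changes in each comparison (12 falls and the rises between E7 and E18, 5 elsewhere), the 6 smallest values and genes whose probe sets differ in call. Members and lists were chosen with earlier results of these data known. The number of arrays limits the precision, and p-values measure the spread between pooled preparations. No 2 arrays were duplicates (correlation within an age from 0.936 to 0.980). Arrays with the same replicate number did not deviate together (mean correlation -0.01, over 0.1 in 2 of 19 pairs), so the numbers do not pair them. Among pairs with different numbers 9 of 54 were over 0.1. The highest, 0.41, joined E7 replicate 4 and E10 replicate 1, the arrays of station 1, and a shared effect of these arrays was not tested. Alternatives covered scaling, pseudocount, filter, trend, array weights, blocks, left-out arrays and the mean of a gene's probe sets.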

Additional observations from a re-analysis of the deposited data

Results flagged for a closer look

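In 60 sets of 4 arrays (the E7 and E18 values of each named gene and of the mean over all 64), the gap of the highest or lowest array to its neighbour, divided by the range of the set, was compared with Dixon's critical value. Chance passes about 1 set in 20, and 2 passed. MRPL55 stood at 10.34 on E7 replicate 2 and between 10.71 and 10.78 on the other E7 arrays (0.849). MRPS33 stood at 12.06 on E18 replicate 2 and between 12.14 and 12.16 on the other E18 arrays (0.847).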

How the results depend on the processing

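Between E7 and E18 the count of falls (28) was 7 with median centring, 18 over the 9 arrays with an instrument file (1 of them at E7, assumed to vary like the rest) and 16 over the 5 arrays without one. It was 24 to 28 when 1 array was left out, and within 1.5 times of 28 under all other alternatives run. The count of rises (1) was 2 on the deposited scale, with the lowest 60% left out, with array weights and over the 9 arrays. It was 3 with median centring, with the instrument file as a block, with the mean of probe sets and without the arrays of the lowest ACTB 3' to 5' ratios, a choice made after seeing the data, as were those by instrument file. It was 0 without a filter, without a trend, over the 5 arrays, with only the ages compared and at an adjusted p under 0.01, and 0 to 3 with 1 array left out. The members' median was 0.059 with median centring, -0.21 over the 9 arrays, -0.22 without the arrays of the lowest ACTB ratios and from -0.22 to -0.13 with 1 array left out. The median of all named genes was -0.16 on the deposited scale, 0.057 with median centring and from -0.06 to -0.03 with 1 array left out. The difference between them was 0.0022 on both scales, which is the same value by construction. It was -0.17 without the arrays of the lowest ACTB ratios and from -0.16 to -0.09 with 1 array left out. MRPL17 (0.028), MRPL50 (0.084) and MRPS33 (0.027) turned positive with median centring. The cause of these differences was not tested.

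Between E7 and E10 the count of falls (13) was 1 with median centring, 8 without a trend, 8 at an adjusted p under 0.01 and from 8 to 14 with 1 array left out. It was 12 with the instrument file as a block, 9 of them among the 13. The members' median was -0.16 with the mean of probe sets (-0.13 relative to all named genes), from -0.22 to -0.17 with 1 array left out (-0.21 to -0.15 relative to all named genes, whose own median was -0.03 to -0.01). No rise was called under any alternative. Between E10 and E14, where none was called, array weights gave 2 falls and 6 rises, the instrument file as a block 1 and 1, the 9 arrays 1 and 6, only the ages compared 1 and 5, leaving out the lowest ACTB ratios 1 and 6, the deposited scale 1 rise, and leaving out 1 array 0 falls and 0 to 1 rises. Shares of all named genes called under the alternatives in this section are not given here. The counts in it therefore do not set these genes apart. Between E10 and E14 the members' median was 0.35 with median centring and 0.07 to 0.10 with 1 array left out. That of all named genes was -0.02 on the deposited scale, 0.22 with median centring and 0.02 to 0.03 with 1 array left out. The difference was 0.13 on both scales, again by construction, and 0.05 to 0.07 with 1 array left out. Between E14 and E18 the falls (7) were 3 with median centring, 11 with array weights, 4 at an adjusted p under 0.01 and 5 to 9 with 1 array left out. The rise was lost (0) on the deposited scale, with median centring, without a filter, with the lowest 20% left out, with the instrument file as a block, over the 9 arrays, with only the ages compared, without the lowest ACTB ratios and at an adjusted p under 0.01, and was 0 to 1 with 1 array left out. The members' median was -0.18 with median centring and -0.11 to -0.07 with 1 array left out, that of all named genes -0.15 and -0.08 to -0.06, and the difference -0.06 without a filter and -0.04 to 0.00 with 1 array left out. The number of genes that changed with age (34) was 11 with median centring, 16 at an adjusted p under 0.01 and 23 to 31 with 1 array left out. With a replicate block 26 genes fell between E7 and E18, all among the 28, 12 between E7 and E10 and 9 between E14 and E18. Signal limits what could be tested in MRPL21, MRPL30 and MRPL34.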
